A study of Mus musculus with 36 samples.

Results

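RNA bound to HA-tagged ribosomes was compared between synapse-enriched muscle and spinal cord of newborn ChAT-Cre;Ribo-tag mice at P0.5. The comparison uses 6 of the 36 libraries of the series, 3 from muscle and 3 from spinal cord, chosen by the tissue, genotype and age in their labels. The first group is synapse-enriched muscle of ChAT-Cre;Ribo-tag mice, called diaphragm below although the labels do not name the muscle. Spinal cord of the same genotype and age is the second. A further group of 3 libraries, synapse-enriched muscle of P0.5 Ribo-tag mice without Cre, is given as the background of the purification in muscle and is called Cre-negative diaphragm. Libraries of the first 2 tissues at E15.5 and P10, also 3 per group, served to ask whether the tissue difference changed with age. Libraries of these 2 tissues from adults aged 2 months, again 3 per group, were in the same fit. They entered the filter on low values and the estimate of scatter, and no adult comparison is given. All of these mice carried the Ribo-tag allele, the fraction sequenced was HA-tag purified RNA in each case, and the labels give no treatment. Whether the 3 libraries of a group stem from different animals is not given, so p-values here describe the scatter of these libraries, which may be technical. Cre-negative spinal cord was not analysed here, so the level that the purification carries over without the tag was measured in muscle alone.

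RiboTag is a knock-in allele of Rpl22, a protein of the large ribosomal subunit, in which Cre replaces the last exon with a copy that ends in an HA epitope. Immunoprecipitation with an HA antibody then recovers ribosomes, and the mRNA on them, from cells with a history of Cre. ChAT-Cre acts in cells that have expressed choline acetyltransferase, which are spinal motor neurons and also other cholinergic neurons of the cord. Motor neuron cell bodies lie in the spinal cord and their axons end in muscle at the neuromuscular junction, where acetylcholine from synaptic vesicles opens receptors in the muscle fibre membrane. Tagged ribosomes in a muscle sample can therefore come from motor axons, while muscle fibres, connective tissue and blood carry untagged ribosomes unless they have expressed the driver. In bulk samples, fewer cells of a type and less RNA per cell cannot be told apart.

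The P0.5 libraries held 98.6, 86.0 and 98.9 M recovered reads (M, 1000000 reads) in diaphragm, 69.9, 71.8 and 70.4 M in spinal cord and 68.2, 79.4 and 77.0 M in Cre-negative diaphragm. At this depth 3 reads, the floor used where all libraries of a group are at 0, stand for 0.0303 to 0.0440 CPM (counts per 1000000 reads of the library). Of the 18845 genes, 18.6%, 30.9% and 19.6% had no read in diaphragm, against 8.3%, 10.8% and 10.4% in spinal cord, and 46.2%, 37.6% and 35.2% in Cre-negative diaphragm. The diaphragm replicates were not evenly spaced. Replicates 1 and 3 lay 2.85 counting errors apart, whereas replicate 2 lay 22.8 and 23.7 counting errors from them, and the spinal cord pairs lay 3.23 to 6.02 apart. Diaphragm replicate 1 was close to a weighted sum of replicate 2 (weight 0.042) and replicate 3 (0.958), and spinal cord replicate 3 to a sum of replicates 1 (0.550) and 2 (0.450). Such a library is called intermediate here. In every group of the fit 1 was marked, the closest to such a sum among those with both weights above 0. No limit of closeness was set, so the rule itself yields 1 per group. The distance from the sum was 2.56 counting errors for P0.5 diaphragm replicate 1, 5.21 for the marked library of E15.5 diaphragm and 8.50 for that of adult diaphragm. Named genes whose call was lost without the marked libraries are named as such. Some list counts are given with and without them.

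The tissues differed at most genes. Of the 14831 genes tested, 11164 (75.3%) were called at an adjusted p under 0.05, with 2722 (18.4%) higher and 8442 (56.9%) lower in diaphragm (limma on log2(CPM + 1), Benjamini-Hochberg adjustment over all genes tested). Differences of at least 2-fold were called at 8415 genes (56.7%), 1782 higher (12%) and 6633 lower (44.7%). The 3 and 3 libraries did not overlap at 11636 genes (78.5%). Among the genes called lower, 625 had no read in any diaphragm library, while 63 of those called higher had no read in any spinal cord library. Without the intermediate libraries 8855 of 14346 genes were called, with 1985 higher and 6870 lower.

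The unequal split depends on the scaling. CPM values sum to the same total in every library, and the skeletal muscle contractile list alone took 21.3% to 22.1% of the diaphragm reads. The median log2 difference of all tested genes was -0.80. With TMM factors that median was -0.09 and the split was 4799 higher and 5683 lower, with DESeq2's size factors -0.21 with 4385 and 6181, and after quantile normalization 0.09 with 5590 and 5095. Called in the same direction under all 4 scalings were 7653 genes (51.6%), 2708 higher (18.3%) and 4945 lower (33.3%). Differences below are on the CPM scale, diaphragm minus spinal cord. A list's median should be read against the -0.80 of all genes, and a difference that changes direction under another scaling is named as such.

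**Figure D1:**
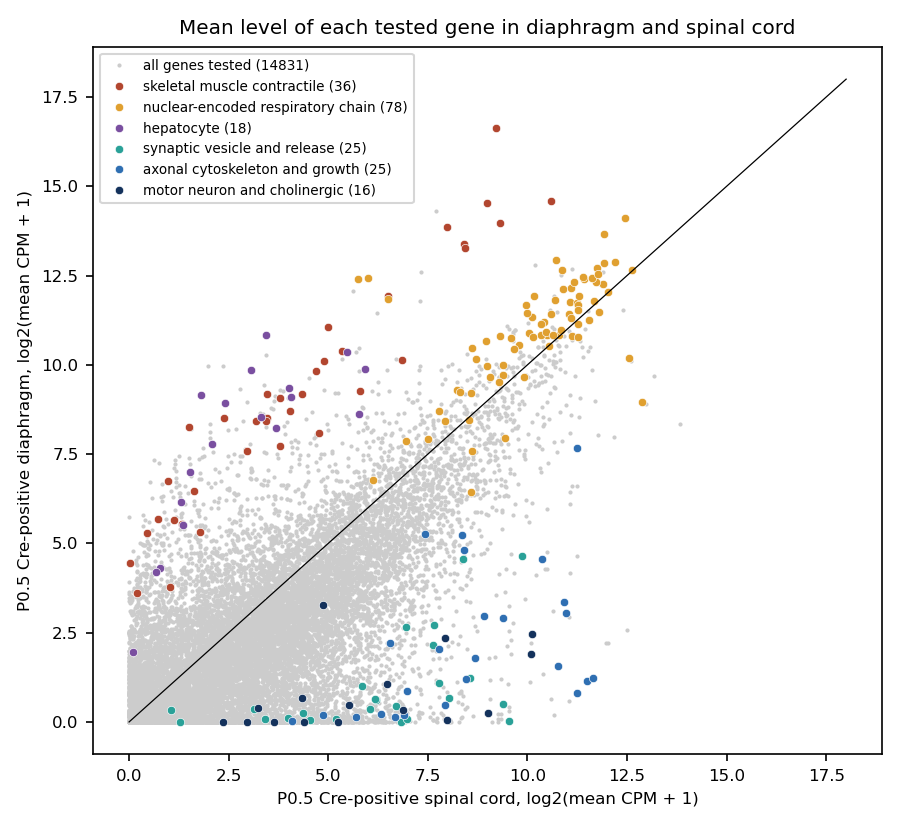
Level of each tested gene in P0.5 Cre-positive diaphragm (vertical axis) against spinal cord (horizontal axis), as log2 of the mean CPM of 3 libraries plus 1, with the members of 6 gene lists coloured and the line of equal level drawn. The 36 contractile genes lie above the diagonal, and the 25 axonal and 25 vesicle genes lie below it.

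The 10 genes furthest below the spinal cord level were all at 692.5 CPM or more in each spinal cord library and at 9.653 CPM or less in each diaphragm library. The order is that of the difference in log2(CPM + 1). On that scale a gene near 0 in diaphragm ranks here only if its spinal cord level is high. Stmn3, a stathmin family protein that binds tubulin in neurons, had 1.64, 0 and 2.39 CPM in diaphragm, against 3281, 3124 and 3176 CPM in spinal cord (log2 difference -10.59 ± 0.27 SE, adjusted p = 1.05e-17), and no read in Cre-negative diaphragm. Pcp4, a small calmodulin-binding protein, had 0.852, 0 and 0.627 CPM in diaphragm, against 1919, 2304 and 2120.2 CPM in spinal cord (log2 difference -10.51 ± 0.31 SE, adjusted p = 5.95e-17). For Gng3, a G protein gamma subunit of neurons, the values were 0.213, 0 and 0.243 CPM in diaphragm, against 1615, 1669.6 and 1594 CPM in spinal cord (log2 difference -10.47 ± 0.12 SE, adjusted p = 2.14e-22). Diaphragm replicate 2 was the library at 0 in all of these. Sncg, which encodes gamma-synuclein of peripheral and motor neurons, was also at 0 in replicate 2, with 7.95, 0 and 6.93 CPM in diaphragm, against 5657, 6022 and 5758 CPM in spinal cord (log2 difference -10.45 ± 0.57 SE, adjusted p = 1.53e-12). Fxyd7, a regulator of the sodium pump in neurons, went the other way among the replicates, with 0.791, 9.65 and 0.455 CPM in diaphragm, against 4112, 3896 and 3936 CPM in spinal cord (log2 difference -10.36 ± 0.66 SE, adjusted p = 1.57e-11). The reticulon Rtn1 of the endoplasmic reticulum was even across replicates at 3.59, 3.55 and 3.82 CPM in diaphragm, against 4185, 4113 and 4156 CPM in spinal cord (log2 difference -9.80 ± 0.18 SE, adjusted p = 5.51e-20). The remaining 4 of the 10 were Nefl, Nefm, Snap25 and Resp18, the last with a log2 difference of -10.03.

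The 10 genes furthest above the spinal cord level were 8 genes of muscle fibres and 2 of liver. Ckmt2, the mitochondrial creatine kinase of striated muscle, had 859.8, 1239.7 and 880.4 CPM in diaphragm, against 4.25, 1.11 and 3.48 CPM in spinal cord (log2 difference 8.06 ± 0.29 SE, adjusted p = 1.26e-15). Tnnc2, the fast fibre form of the calcium sensor troponin C, had 103197, 93783 and 107069 CPM in diaphragm, against 926, 239 and 604 CPM in spinal cord (log2 difference 7.63 ± 0.76 SE, adjusted p = 1.70e-08). Sln, sarcolipin, an inhibitor of the calcium pump of the sarcoplasmic reticulum, had 23093, 14104 and 23173 CPM in diaphragm, against 338, 69.6 and 212 CPM in spinal cord (log2 difference 6.83 ± 0.34 SE, adjusted p = 3.88e-13). In Cre-negative diaphragm the levels were 1459, 1599 and 1537 CPM for Ckmt2, 64658, 92955 and 87975 CPM for Tnnc2 and 7793, 13869 and 12769 CPM for Sln, so muscle purified without Cre held these transcripts too, Ckmt2 above and Tnnc2 and Sln below every Cre-positive diaphragm library. Mybpc2, Mb, Hrc, Casq2 and Cox7a1 had log2 differences of 6.87, 6.83, 6.70, 6.65 and 6.65. The 2 liver genes were Apoc4, an apolipoprotein, and Fabp1, a fatty acid binding protein of hepatocytes and enterocytes, which are described with the hepatocyte list.

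The motor neuron and cholinergic genes were lower in diaphragm throughout. All 16 members were called lower, under each of the 4 scalings, beside 56.9% of all tested genes (33.3% under all 4 scalings), with a median log2 difference of -5.15, and of -6.78 with the 4 members at 0 in all diaphragm libraries set to their lower bound. Together they took 0.00229% ± 0.000199 of the reads in diaphragm, against 0.361% ± 0.0201 in spinal cord (SD, n = 3 each), and 0.00337% ± 0.000524 in Cre-negative diaphragm. Chat, the enzyme that makes acetylcholine and the gene whose promoter drives Cre here, had 0 CPM in every library of diaphragm, against 12.8, 10.4 and 11.3 CPM in spinal cord, and was at least 360.5-fold lower (adjusted p = 1.58e-16) in diaphragm. Slc18a3, the vesicular acetylcholine transporter, had 0.0913, 0 and 0.0505 CPM in diaphragm, against 276, 235 and 249 CPM in spinal cord (log2 difference -7.92 ± 0.19 SE, adjusted p = 2.69e-18). Its diaphragm reads are few, and Cre-negative diaphragm had none. Slc5a7, which takes choline back into the terminal, had 0.0101, 0 and 0 CPM in diaphragm, against 38.1, 31.2 and 41.3 CPM in spinal cord (log2 difference -5.23 ± 0.11 SE, adjusted p = 6.17e-19), and 1.92, 0 and 0.61 CPM in Cre-negative diaphragm. The transcription factors of motor neuron identity were at or near 0 in muscle. Isl1 had 0.649, 0 and 0.556 CPM in diaphragm, against 42.7, 44.5 and 47.3 CPM in spinal cord (log2 difference -5.06 ± 0.24 SE, adjusted p = 1.84e-13). Isl2, Mnx1 and Lhx3 had no read in diaphragm, and were at least 627-fold lower (adjusted p = 2.25e-16), at least 214-fold lower (adjusted p = 3.75e-15) and at least 131-fold lower (adjusted p = 1.39e-13) there than in spinal cord. Calcb, a calcitonin gene-related peptide of motor neurons, had 0.304, 0 and 0.263 CPM in diaphragm, against 523, 499.8 and 530.0 CPM in spinal cord (log2 difference -8.78 ± 0.25 SE, adjusted p = 4.80e-17). Prph, the intermediate filament peripherin of neurons with peripheral axons, had 6.79, 0 and 6.77 CPM in diaphragm, against 1178, 1064 and 1107 CPM in spinal cord (log2 difference -8.15 ± 0.54 SE, adjusted p = 3.63e-11). Cre-negative diaphragm held 0, 6.12 and 5.32 CPM of Prph, so the muscle groups overlapped.

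**Figure D2:**
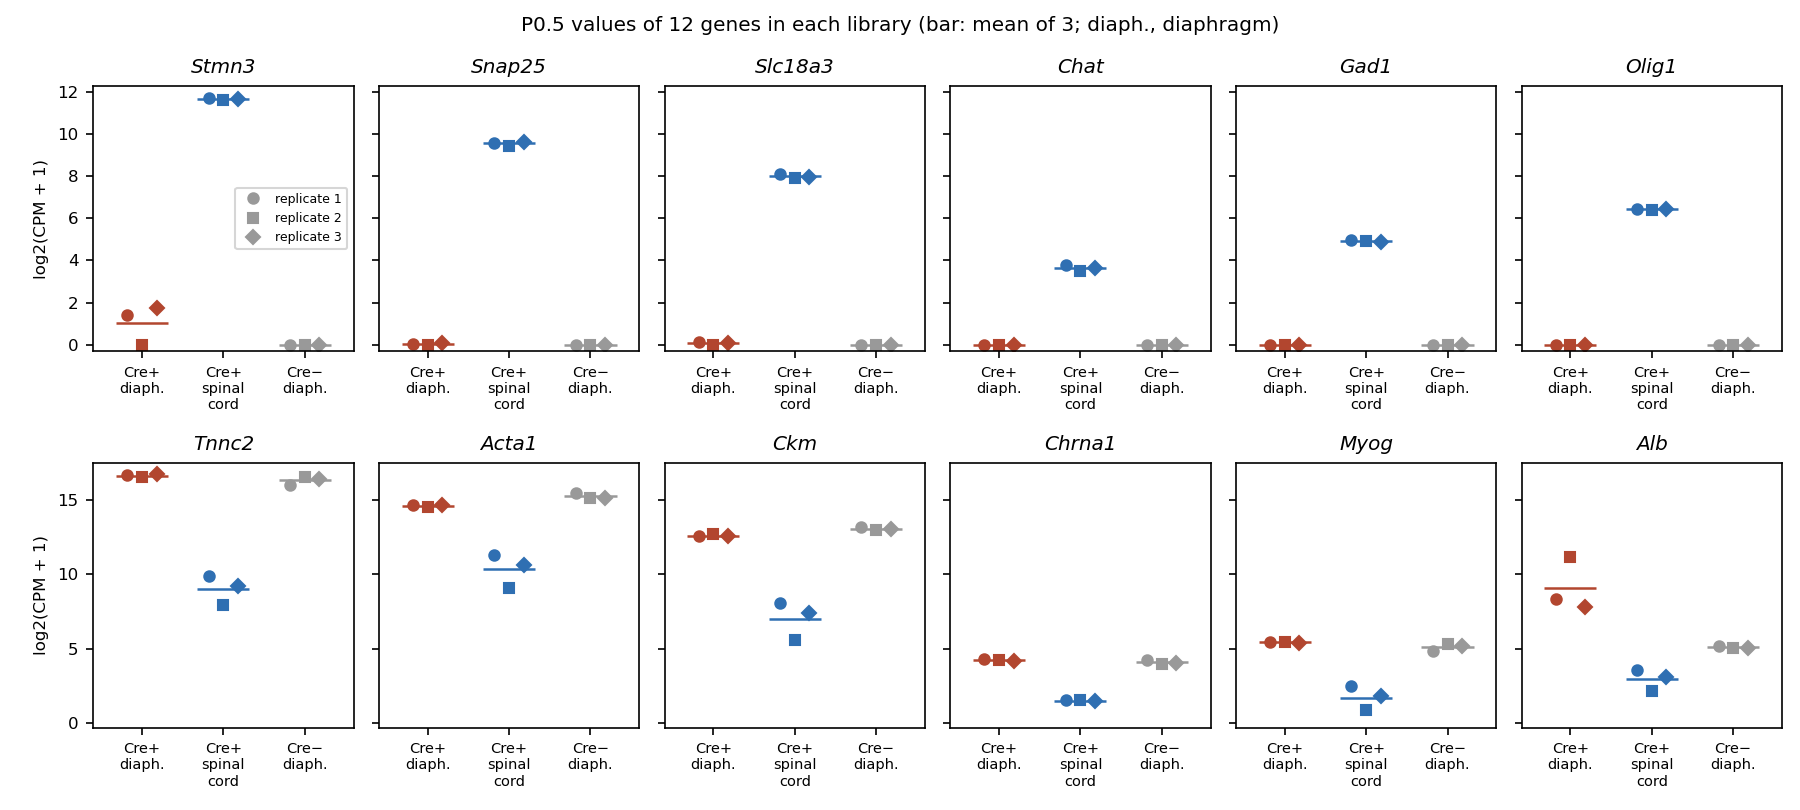
Values of 12 genes as log2(CPM + 1) (vertical axis) in each P0.5 library of Cre-positive diaphragm, Cre-positive spinal cord and Cre-negative diaphragm, with the bar at the mean of 3. The 6 neuronal and glial genes of the upper row are near 0 in both muscle groups, and the muscle genes of the lower row and Alb stand above spinal cord in both muscle groups.

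Genes of the axon were lower too. Beside 56.9% of all tested genes (33.3% under all 4 scalings), the axonal cytoskeleton and growth list had 25 of 25 members called lower, under every scaling. Its median log2 difference was -6.14. Its share was 0.0376% ± 0.0053 of reads in diaphragm, against 2.17% ± 0.0415 in spinal cord, and 0.0854% ± 0.0435 in Cre-negative diaphragm. Nefl, the light neurofilament subunit, had 0.609, 1.22 and 0.414 CPM in diaphragm, against 2588, 2219 and 2420.0 CPM in spinal cord (log2 difference -10.45 ± 0.24 SE, adjusted p = 2.05e-18). Nefm, the medium subunit, had 1.28, 1.24 and 1.08 CPM in diaphragm, against 3051, 2694 and 2860.2 CPM in spinal cord (log2 difference -10.35 ± 0.16 SE, adjusted p = 6.53e-21). Tubb3, the neuronal beta-tubulin, had 2.79, 0.616 and 2.46 CPM in diaphragm, against 1735, 1759 and 1713 CPM in spinal cord (log2 difference -9.29 ± 0.24 SE, adjusted p = 1.07e-17). All 3 genes kept reads in every diaphragm library, and the ratios of the mean levels, spinal cord over diaphragm, were 3220.5 for Nefl, 2388 for Nefm and 888 for Tubb3. Of the 25 axonal genes, 19 had reads in all 3 Cre-positive diaphragm libraries, and 3 of these had none in any Cre-negative library. The 3 were Nefl, Nefh, the heavy neurofilament subunit at 0.0304, 1.12 and 0.0101 CPM, and Kif1a, a kinesin that moves synaptic vesicle precursors along axons, at 0.619, 1.33 and 0.556 CPM in diaphragm and 133, 120.3 and 125 CPM in spinal cord. Over all 14831 tested genes the same pattern held for 1012 of the 12299 with reads in all 3 Cre-positive diaphragm libraries.

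The presynaptic release machinery followed the axonal genes. All 25 members of the synaptic vesicle and release list were called lower, 24 of them under all 4 scalings, with a median log2 difference of -5.24. Of all tested genes 56.9% were lower, and 33.3% under all 4 scalings. The list took 0.00685% ± 0.000952 of reads in diaphragm, against 0.478% ± 0.0144 in spinal cord, and 0.00626% ± 0.001 in Cre-negative diaphragm, so the muscle groups overlapped. Snap25, a SNARE protein of vesicle fusion, had 0.0203, 0 and 0.0606 CPM in diaphragm, against 759, 693 and 788 CPM in spinal cord (log2 difference -9.51 ± 0.13 SE, adjusted p = 1.21e-21). Cplx1, a complexin that binds the SNARE complex, had 0.507, 0 and 0.728 CPM in diaphragm, against 685, 635 and 672 CPM in spinal cord (log2 difference -8.92 ± 0.19 SE, adjusted p = 4.09e-19). Vamp1, a vesicle SNARE, had 1.88, 0.151 and 1.95 CPM in diaphragm, against 398, 366 and 371 CPM in spinal cord (log2 difference -7.47 ± 0.24 SE, adjusted p = 2.35e-16). Replicate 2 was the lowest diaphragm library for these SNARE-related genes. Syp, the vesicle membrane protein synaptophysin, was highest in that replicate, with 0.213, 1.37 and 0.212 CPM in diaphragm, against 249, 281 and 258 CPM in spinal cord (log2 difference -7.44 ± 0.25 SE, adjusted p = 4.40e-16), and Cre-negative diaphragm had 6.23, 0 and 1.17 CPM. Syn1, synapsin, had no read in any diaphragm library, against 114, 109 and 116 CPM in spinal cord, and was at least 3549-fold lower (adjusted p = 6.53e-21). Reads in all 3 Cre-positive diaphragm libraries were found for 17 of the 25, and 4 of those 17 had none in Cre-negative diaphragm, namely Stx1a, Bsn, Sv2b and Unc13b. These 4 genes, like Nefh and Kif1a, were chosen for naming after their values were seen. Over all 14831 tested genes the same pattern held for 1012 of 12299, and the Cre-negative libraries held fewer reads. Stx1a, the syntaxin of the plasma membrane SNARE complex, had 0.558, 0.43 and 0.708 CPM in diaphragm, against 71.1, 72.1 and 70.5 CPM in spinal cord (log2 difference -5.53 ± 0.22 SE, adjusted p = 7.50e-15).

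Most other neuronal lists were lower as well, while 56.9% of all tested genes were called lower (33.3% under all 4 scalings). All 18 tested transmitter receptor genes and all 15 neuronal voltage-gated channel genes were called lower under every scaling, with median log2 differences of -4.38 and -2.99 (-5.53 and -3.38 with genes at 0 in diaphragm at their bound). Grin1, the obligate NMDA receptor subunit, had no diaphragm read, against 101, 93.1 and 95.9 CPM in spinal cord, and was at least 3035-fold lower (adjusted p = 6.53e-21). Of 15 tested interneuron and transmitter genes 14 were lower, with a median of -2.84 (-6.21 with the 9 at 0 in diaphragm at their bound). These mark neurons that the cholinergic driver is not meant to tag, and they were present in the spinal cord libraries. Gad1, which makes the inhibitory transmitter GABA, had no read in diaphragm, against 29.9, 29.7 and 28.3 CPM in spinal cord, and was at least 918-fold lower (adjusted p = 1.04e-16) in diaphragm. Slc17a6, a vesicular glutamate transporter, had none in diaphragm either, against 27, 26.4 and 27.7 CPM in spinal cord, and was at least 849-fold lower (adjusted p = 4.89e-18). How much of these levels the purification carries over in the cord was not tested. Sensory neuron genes were nearer to all genes. Of 5 tested, 4 were lower, beside 56.9% of all genes, with a median of -1.02, which is -0.23 from that of all genes, and 2 of the 5 lay above it. Under all scalings 1 was lower, and 2 were without the intermediate libraries.

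Muscle fibre genes made up the other side of the comparison. Every member of the skeletal muscle contractile list, 36 of 36, was called higher in diaphragm under all 4 scalings, beside 18.4% of all tested genes (18.3% under all 4 scalings), with a median log2 difference of 4.97. The list took 21.7% ± 0.45 of reads in diaphragm, against 0.473% ± 0.277 in spinal cord, and 23% ± 0.769 in Cre-negative diaphragm. The level in muscle thus stood within a narrow range with and without Cre, 21.3% to 22.1% and 22.2% to 23.6% of reads. Acta1, the skeletal muscle alpha-actin, had 25486, 23568 and 25145 CPM in diaphragm, against 2494, 544 and 1566 CPM in spinal cord (log2 difference 4.26 ± 0.47 SE, adjusted p = 6.95e-08). Ckm, the cytosolic creatine kinase of muscle, had 6051, 6602 and 5971 CPM in diaphragm, against 267, 47.7 and 165 CPM in spinal cord (log2 difference 5.58 ± 0.55 SE, adjusted p = 1.38e-08). Relative to their mean, the spinal cord libraries were spread more widely than the diaphragm libraries, with replicate 1 highest and replicate 2 lowest. That order of replicates 1, 3 and 2 held for 34 of the 36 contractile genes in spinal cord, whose summed share there ran from 0.19% to 0.742%. Mybpc2, the fast myosin binding protein C of the thick filament, had 277, 359.6 and 274 CPM in diaphragm, against 3.03, 0.376 and 2.12 CPM in spinal cord (log2 difference 6.87 ± 0.28 SE, adjusted p = 9.47e-15). Tnnt1, the slow fibre troponin T, had 1889, 2512 and 1941 CPM in diaphragm, against 49.4, 10.9 and 32.8 CPM in spinal cord (log2 difference 6.27 ± 0.40 SE, adjusted p = 1.97e-11). Myl3, a slow fibre and ventricular myosin light chain, had 434, 235 and 430.3 CPM in diaphragm, against 6.92, 1.97 and 3.78 CPM in spinal cord (log2 difference 6.20 ± 0.26 SE, adjusted p = 1.93e-14). Fast and slow fibre forms both stood on the diaphragm side.

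The genes that couple excitation to contraction did the same, beside 18.4% of all tested genes called higher (18.3% under all 4 scalings). All 17 were called higher under every scaling, 16 of them without the intermediate libraries, with a median log2 difference of 4.41 and a share of 2.32% ± 0.471 in diaphragm, against 0.0334% ± 0.0167 in spinal cord, and 1.62% ± 0.28 in Cre-negative diaphragm. Hrc, a calcium-binding protein of the sarcoplasmic reticulum, had 154, 169.5 and 155 CPM in diaphragm, against 0.743, 0.362 and 0.554 CPM in spinal cord (log2 difference 6.70 ± 0.18 SE, adjusted p = 1.14e-17). Casq2, the calcium store protein calsequestrin of slow and cardiac muscle, had 572, 784 and 564 CPM in diaphragm, against 8.72, 2.37 and 6.61 CPM in spinal cord (log2 difference 6.65 ± 0.33 SE, adjusted p = 3.38e-13). Trdn, triadin, which anchors calsequestrin to the calcium release channel, had 111, 235 and 111 CPM in diaphragm, against 0.972, 0.376 and 0.711 CPM in spinal cord (log2 difference 6.43 ± 0.31 SE, adjusted p = 1.99e-13). Replicate 2 was the highest diaphragm library for Casq2 and Trdn and the lowest for Sln.

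The promoters of 2 of these genes are shown because both stood far above the cord in the same libraries and hold short motifs known from muscle genes. The sequences are RefSeq's for build GRCm38.p6 and run from 250 bases before to 50 after the start site, on the gene's strand. Capitals mark matches to CAGCTG, an E-box of the kind that myogenic factors bind, and to the CArG box, the serum response factor site, which was searched under that name on both strands. The Acta1 window is chr8:123894726-123895025 on the minus strand, with the CArG box 73 bases and CAGCTG 221 bases before the start. The Hrc window is chr7:45335019-45335318 on the plus strand, with CAGCTG 22 bases before the start.
Acta1: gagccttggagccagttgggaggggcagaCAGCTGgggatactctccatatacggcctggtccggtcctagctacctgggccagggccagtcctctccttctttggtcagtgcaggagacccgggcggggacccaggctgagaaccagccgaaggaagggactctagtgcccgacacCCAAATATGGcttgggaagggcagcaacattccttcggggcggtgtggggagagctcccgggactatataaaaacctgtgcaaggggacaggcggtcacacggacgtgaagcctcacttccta
Hrc: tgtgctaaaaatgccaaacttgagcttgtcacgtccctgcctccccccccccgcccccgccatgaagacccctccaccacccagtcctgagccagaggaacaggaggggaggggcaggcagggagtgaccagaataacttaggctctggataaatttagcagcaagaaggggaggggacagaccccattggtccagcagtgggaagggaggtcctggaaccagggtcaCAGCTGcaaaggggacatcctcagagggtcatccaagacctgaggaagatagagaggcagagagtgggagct
Among the 34 RefSeq promoters of 29 contractile genes, 14 (41.2%) held CAGCTG and 7 (20.6%) a CArG box, beside 5355 (16.3%) and 535 (1.63%) of all 32851 promoters of that length. CAGCTG is its own reverse complement and shares no letters with a CArG box match in these windows. A match is a description of the letters and does not show that a factor binds there.

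Genes of muscle precursor cells were higher in diaphragm, beside 18.4% of all tested genes (18.3% under all 4 scalings). All 10 tested members of the satellite cell and myoblast list were called higher under every scaling, 8 of them without the intermediate libraries, with a median log2 difference of 2.80. Myf6, a myogenic factor of muscle fibres, had 79.2, 71.7 and 83.9 CPM in diaphragm, against 0.915, 0.613 and 0.696 CPM in spinal cord (log2 difference 5.51 ± 0.19 SE, adjusted p = 5.82e-16). Myog, myogenin, which drives myoblast differentiation, had 43.1, 42.6 and 41 CPM in diaphragm, against 4.68, 0.808 and 2.49 CPM in spinal cord (log2 difference 3.71 ± 0.31 SE, adjusted p = 1.39e-09). The membrane proteins of myoblast fusion Mymx and Mymk had log2 differences of 4.38 and 3.53. Cre-negative diaphragm held 486, 169.9 and 233 CPM of Myf6 and 27.4, 38 and 34.9 CPM of Myog.

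Genes of the postsynaptic side of the neuromuscular junction lay on both sides, more of them higher in diaphragm. Of 15 genes, 9 were called higher, under every scaling, and 4 lower, of which Agrn alone was lower under every scaling, and 6 and 2 of them were called without the intermediate libraries. Among all tested genes 18.4% were higher and 56.9% lower. The list's median of 1.04 lay 1.84 above that of all genes, with 12 of the 15 genes above the all-gene median. With TMM factors 11 were higher and 1 lower, with DESeq2's size factors 11 and 1, and after quantile normalization 11 and 2. The list's share was 0.0225% ± 0.00268 in diaphragm, against 0.0252% ± 0.000879 in spinal cord, and 0.0375% ± 0.00803 in Cre-negative diaphragm. Chrna1, the acetylcholine-binding alpha subunit of the muscle receptor, had 18.4, 17.7 and 17.1 CPM in diaphragm, against 1.92, 1.88 and 1.79 CPM in spinal cord (log2 difference 2.71 ± 0.23 SE, adjusted p = 1.27e-09). Chrnd, the delta subunit, had 17, 17.5 and 14.6 CPM in diaphragm, against 0.4, 0.251 and 0.256 CPM in spinal cord (log2 difference 3.74 ± 0.44 SE, adjusted p = 2.06e-07). Chrng, the gamma subunit of the fetal receptor, had 10.8, 5.47 and 11.9 CPM in diaphragm, against 1, 0.209 and 0.469 CPM in spinal cord (log2 difference 2.71 ± 0.24 SE, adjusted p = 4.03e-09). The tissues did not overlap for any of these subunits. Cre-negative diaphragm had 17.7, 14.7 and 15.3 CPM of Chrna1, 2.95, 2.06 and 2.23 CPM of Chrnd and 13.2, 2.83 and 4.47 CPM of Chrng, and of these Chrnd was below every Cre-positive diaphragm library. Chrne, the epsilon subunit that replaces gamma in the adult receptor, was near the floor, with 1.27, 0 and 0.839 CPM in diaphragm, against 0.0286, 0.0557 and 0.0995 CPM in spinal cord (log2 difference 0.60 ± 0.23 SE, adjusted p = 0.0242), and its call was lost without the intermediate libraries (adjusted p = 0.347), without diaphragm replicate 1 (0.176) or 3 (0.0875) and without spinal cord replicate 1 (0.0592) or 2 (0.0520).

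The clustering proteins varied more between diaphragm replicates. Musk, the receptor kinase that organises the postsynaptic membrane, had 7.46, 39.5 and 6.03 CPM in diaphragm, against 0.172, 0.111 and 0.171 CPM in spinal cord (log2 difference 3.54 ± 0.43 SE, adjusted p = 3.50e-07), with 138, 8.74 and 33.9 CPM in Cre-negative diaphragm. Replicate 2 was the highest diaphragm library for Musk. Rapsn, the rapsyn scaffold that holds receptors together, had 29.7, 14.4 and 29.3 CPM in diaphragm, against 3.65, 3.93 and 4.52 CPM in spinal cord (log2 difference 2.27 ± 0.24 SE, adjusted p = 4.65e-08). Agrn, agrin, which motor nerves release to activate Musk and which muscle also makes, had 8.11, 24.4 and 7.22 CPM in diaphragm, against 49.9, 43.7 and 46.4 CPM in spinal cord (log2 difference -1.94 ± 0.38 SE, adjusted p = 1.34e-04). Lrp4, the agrin receptor, had 5.59, 26.9 and 4.31 CPM in diaphragm, against 4.69, 7.25 and 5.78 CPM in spinal cord (log2 difference 0.54 ± 0.43 SE, adjusted p = 0.268), so the groups overlapped and no difference was called on this scale. Lrp4 was called higher in diaphragm with DESeq2's size factors (1.24, adjusted p = 0.00878), TMM factors (1.39, adjusted p = 0.00320) and quantile normalization (1.58, adjusted p = 6.74e-04), and by edgeR (1.93) and DESeq2 (1.70). Without diaphragm replicate 2 its log2 difference on the CPM scale was -0.21 (adjusted p = 0.542), and without replicate 3 it was 0.99 (adjusted p = 0.0487). Utrn, the dystrophin relative utrophin, also overlapped, with 1.66, 6.27 and 1.47 CPM in diaphragm, against 3.09, 2.13 and 2.7 CPM in spinal cord (log2 difference 0.00 ± 0.30 SE, adjusted p = 0.993), and was called lower without diaphragm replicate 2 (-0.50, adjusted p = 0.0398). Utrn was called higher with DESeq2's size factors (0.57, adjusted p = 0.0432), TMM factors (0.69, adjusted p = 0.0122) and quantile normalization (0.97, adjusted p = 5.46e-04), and by edgeR (1.16) and DESeq2 (0.93), so neither its call nor its direction is stable. Dok7, the activator of Musk inside the fibre, had 3.07, 5.34 and 3.19 CPM in diaphragm, against 7.42, 5.99 and 7.31 CPM in spinal cord (log2 difference -0.73 ± 0.22 SE, adjusted p = 0.00597), and Etv5, a transcription factor of synaptic nuclei, had 6.75, 5.81 and 7.17 CPM in diaphragm, against 11.8, 13.3 and 11.8 CPM in spinal cord (log2 difference -0.81 ± 0.22 SE, adjusted p = 0.00258). The direction of both turns under TMM and quantile scaling. Without the intermediate libraries the calls of Dok7 (adjusted p = 0.182) and Etv5 (adjusted p = 0.0543) were lost.
The promoter of Chrna1 is shown for comparison with the windows above, at chr2:73580289-73580588 on the minus strand of GRCm38.p6, with the CAGCTG matches 92 and 44 bases before the start in capitals and no CArG box.
Chrna1: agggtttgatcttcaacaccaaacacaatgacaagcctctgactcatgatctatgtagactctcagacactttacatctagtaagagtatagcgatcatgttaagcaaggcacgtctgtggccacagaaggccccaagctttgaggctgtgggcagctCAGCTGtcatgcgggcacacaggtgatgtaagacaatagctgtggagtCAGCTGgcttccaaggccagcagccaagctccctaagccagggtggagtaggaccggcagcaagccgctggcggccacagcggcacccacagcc

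Genes set in pairs of a muscle form and a more widely or neuronally expressed form mostly lay on opposite sides. In 23 of the 26 pairs set side by side, the muscle form was called higher and its partner lower, and in 21 of these under all 4 scalings. Taken singly, 23 muscle forms were higher and 24 partners lower, beside 18.4% higher and 56.9% lower among all tested genes. The pairs were a chosen set, and the form called muscle here is not specific to muscle in each, as with Kif5b (0.80) and Eef1a2. Ckb, the brain creatine kinase, had 18.2, 15.54 and 17.2 CPM in diaphragm, against 819, 810.3 and 804 CPM in spinal cord (log2 difference -5.50 ± 0.20 SE, adjusted p = 1.74e-15), the reverse of Ckm. For the glycolytic enzyme enolase, Eno3 of muscle had 2969.8, 2610.3 and 2885 CPM in diaphragm, against 128, 17.7 and 77.7 CPM in spinal cord (log2 difference 5.62 ± 0.47 SE, adjusted p = 1.38e-09). Eno2 of neurons had 0.538, 0.361 and 0.516 CPM in diaphragm, against 322, 287 and 306 CPM in spinal cord (log2 difference -7.70 ± 0.12 SE, adjusted p = 6.53e-21), and no read in Cre-negative diaphragm. The phosphoglycerate mutases Pgam2 and Pgam1 differed by 6.63 and -3.98 on the log2 scale, and the oxygen-binding globins Mb, myoglobin, and Ngb, neuroglobin, by 6.83 for Mb, while Ngb had no diaphragm read, against 7.73, 7.76 and 8.51 CPM in spinal cord. Among acetylcholine receptor subunits Chrna1 of muscle was higher, as above, and Chrna4 of neurons had 0.588, 0 and 0.627 CPM in diaphragm, against 70.5, 59.7 and 64.6 CPM in spinal cord (log2 difference -5.58 ± 0.16 SE, adjusted p = 2.89e-17). Of the 3 pairs that did not follow the pattern, Map4 and Mapt, microtubule-associated proteins, were both lower at -1.10 and -5.99, but the call of Map4 was lost with TMM factors (-0.12, adjusted p = 0.336), quantile normalization (-0.20, adjusted p = 0.110) and edgeR (-0.04, adjusted p = 0.736). The calmodulin kinase subunit Camk2d was lower at -2.86 and Camk2a was not called, at -0.13 (adjusted p = 0.684), with a direction that turns under the other 3 scalings. Eef1a2, the elongation factor of adult muscle and neurons, had a log2 difference of -0.92 that turns under quantile normalization, and Eef1a1, its form in most cells, was higher at 0.41 (adjusted p = 0.0173), a call lost without the intermediate libraries (adjusted p = 0.0594), without diaphragm replicate 2 (0.173, log2 difference 0.17) and without spinal cord replicate 1 (0.0669).

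**Figure D3:**
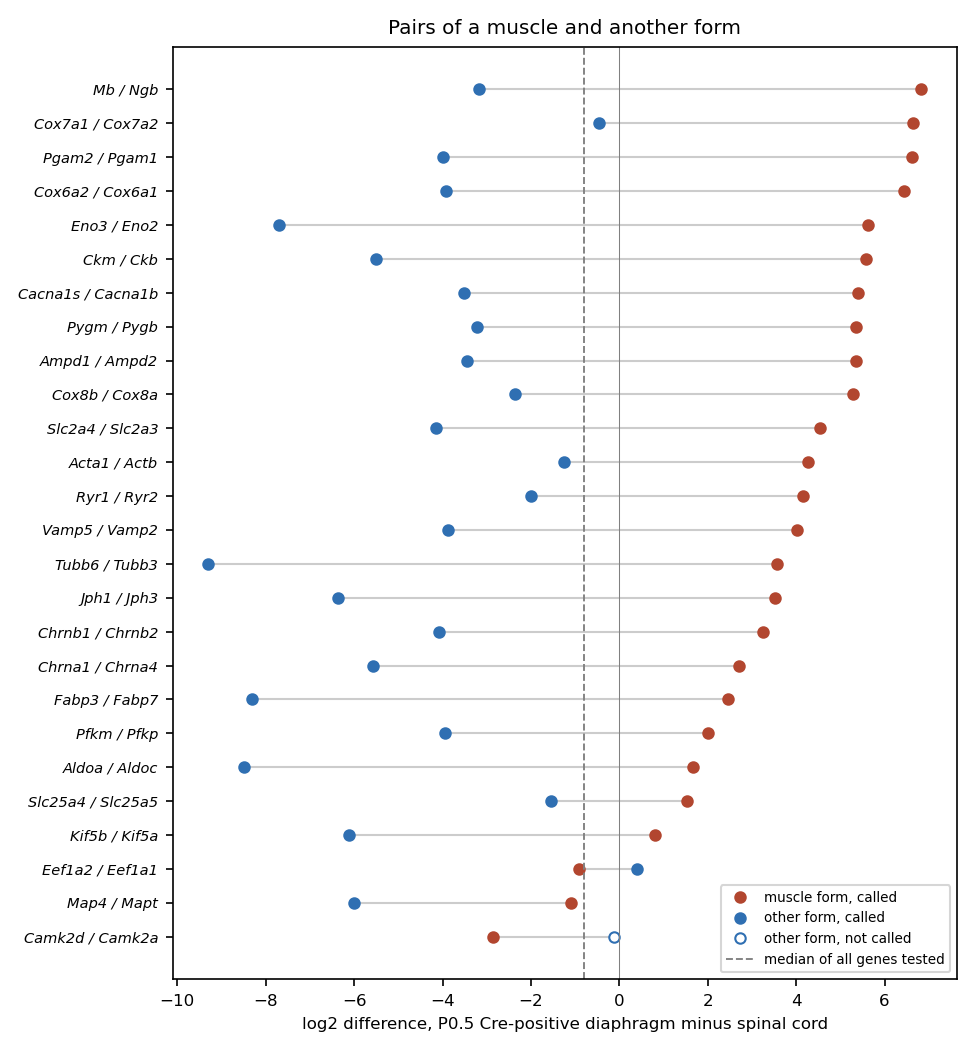
Log2 difference, P0.5 diaphragm minus spinal cord, on the log2(CPM + 1) scale (horizontal axis) for the muscle form and the other form of 26 gene pairs (vertical axis). In 23 pairs the muscle form lies above 0 and its partner below 0, and Map4 with Mapt, Camk2d with Camk2a, and Eef1a2 with Eef1a1 are the exceptions.

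Respiratory chain subunits were mostly higher in diaphragm, with tissue forms on opposite sides. Of 78 nuclear-encoded subunits, 59 were called higher and 9 lower, 47 and 4 of them under all scalings and 49 and 7 without the intermediate libraries, with a median log2 difference of 0.65. Their share of reads was 23.7% ± 2.84 in diaphragm, against 14.3% ± 0.141 in spinal cord, and 19% ± 1.68 in Cre-negative diaphragm. Cox7a1, a cytochrome oxidase subunit of heart and skeletal muscle, had 6036, 4249.7 and 5838 CPM in diaphragm, against 63.8, 45.4 and 48.7 CPM in spinal cord (log2 difference 6.65 ± 0.19 SE, adjusted p = 4.81e-17). Cox6a2, the muscle form of another subunit of that complex, had 6239.8, 3796 and 6556 CPM in diaphragm, against 80.3, 41.9 and 67.5 CPM in spinal cord (log2 difference 6.44 ± 0.47 SE, adjusted p = 1.78e-10). Its partner Cox6a1 had 556, 391 and 553 CPM in diaphragm, against 7462, 7606 and 7284 CPM in spinal cord (log2 difference -3.91 ± 0.10 SE, adjusted p = 8.35e-18). For the next subunit, Cox8b was higher at 5.29 and Cox8a lower at -2.36 on the log2 scale. Cox7a2, the partner of Cox7a1, differed little, with 1716, 1791 and 1792 CPM in diaphragm, against 2473, 2468 and 2395 CPM in spinal cord (log2 difference -0.47 ± 0.08 SE, adjusted p = 3.72e-05), and its direction turns with TMM and DESeq2's size factors. Ndufc1 of complex I had 7649, 7781 and 8093 CPM in diaphragm, against 1604, 1729 and 1701 CPM in spinal cord (log2 difference 2.22 ± 0.10 SE, adjusted p = 1.00e-13). Lower members outside cytochrome oxidase included Sdhd, a membrane anchor of complex II, at -2.30, and Atp5g2, a ring subunit of ATP synthase, at -1.50. Glycolysis and glycogen genes lay on both sides, with 12 of 24 called higher and 10 lower, 11 and 7 under all scalings. Among all tested genes 18.4% were higher and 56.9% lower, and the list's median of 0.54 lay 1.34 above theirs. With TMM factors 15 were higher and 7 lower, and after quantile normalization 13 and 7. The list's share was 2.46% ± 0.277 in diaphragm, against 1.18% ± 0.0515 in spinal cord.

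The direction of most ribosomal protein genes depended on the scaling. Of 79, 21 were called higher and 42 lower on the CPM scale, beside 18.4% and 56.9% of all tested genes. With TMM factors 61 were higher and 5 lower, with DESeq2's size factors 53 and 6, and after quantile normalization 28 and 27, and 21 and 5 kept 1 direction under all 4 scalings. The median log2 difference of -0.26 lay 0.54 above that of all tested genes on the CPM scale, with 65 of the 79 genes above the all-gene median. The list's median lay 0.83 above with TMM factors, 0.77 above with DESeq2's size factors and -0.02 from it after quantile normalization. Without the intermediate libraries 13 and 24 were called. Many of these genes have near-identical processed copies in the genome, between which reads can be divided, so their values are uncertain. Rpl22, the tagged protein's gene, had 17.1, 12.6 and 17.6 CPM in diaphragm, against 48.3, 53.7 and 51.3 CPM in spinal cord (log2 difference -1.65 ± 0.13 SE, adjusted p = 4.19e-10). The lowest log2 difference in the list was that of Rpl39, with 145, 279.7 and 163 CPM in diaphragm, against 866, 913 and 865 CPM in spinal cord (log2 difference -2.23 ± 0.16 SE, adjusted p = 1.34e-10). Rpl27 was lower at -1.75, and Rpl5, a carrier of the ribosomal 5S RNA, was higher, with 687, 988 and 689 CPM in diaphragm, against 369.6, 405 and 383 CPM in spinal cord (log2 difference 1.01 ± 0.12 SE, adjusted p = 1.44e-07). Translation factors were called higher in 6 of 25 cases and lower in 15 on the CPM scale, shares near those of all genes, with a median of -0.62. With TMM factors 13 were higher and 4 lower, and 6 and 4 kept 1 direction under all scalings. Eif4ebp1, which holds back cap-dependent initiation by binding Eif4e, had 662, 438 and 659 CPM in diaphragm, against 41.6, 31.5 and 37.2 CPM in spinal cord (log2 difference 3.94 ± 0.21 SE, adjusted p = 1.33e-12). Eif4e itself, the cap-binding protein, had 38.3, 26.8 and 37.8 CPM in diaphragm, against 126, 125 and 134 CPM in spinal cord (log2 difference -1.89 ± 0.12 SE, adjusted p = 2.50e-11). The inhibitor and its target thus lay on opposite sides of the comparison. Eif5a, a factor that helps ribosomes through stalling sequences, was lower at -1.95.

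Genes of dividing cells were mostly higher in diaphragm, and the 3 described here were highest in its replicate 2. Of 22 cell cycle genes 16 were called higher and none lower, under all 4 scalings (12 without the intermediate libraries), and their median lay 1.79 above that of all genes on the log2 scale. Among all tested genes 18.4% were higher and 56.9% lower, or 18.3% and 33.3% under all 4 scalings. Without diaphragm replicate 2, 13 cell cycle genes were called higher and 1 lower. Mki67, a protein of dividing nuclei, had 3.31, 13.2 and 2.63 CPM in diaphragm, against 0.329, 0.571 and 0.497 CPM in spinal cord (log2 difference 2.05 ± 0.31 SE, adjusted p = 6.49e-06). Mcm3, a subunit of the replicative helicase, had 5.33, 13.5 and 4.31 CPM in diaphragm, against 1.16, 1.03 and 0.952 CPM in spinal cord (log2 difference 1.94 ± 0.24 SE, adjusted p = 5.02e-07). Cdk1, the mitotic kinase, had 7.95, 12.3 and 7.67 CPM in diaphragm, against 2.22, 2.38 and 2.02 CPM in spinal cord (log2 difference 1.66 ± 0.16 SE, adjusted p = 1.24e-08). Their share was 0.0176% ± 0.00772 in diaphragm, against 0.00957% ± 0.000157 in spinal cord, and 0.019% ± 0.00435 in Cre-negative diaphragm. Immediate early genes were called higher in 7 of 10 tested cases and lower in 2, under every scaling, beside the same shares of all genes. Atf3, a transcription factor induced by stress, had 10.9, 32.4 and 11.2 CPM in diaphragm, against 2.06, 2.23 and 1.58 CPM in spinal cord (log2 difference 2.52 ± 0.29 SE, adjusted p = 1.54e-07). Ier2, another early response gene, was higher at 1.68. The lower genes were Jun, with 6.78, 12.8 and 6.98 CPM in diaphragm, against 43, 42.3 and 46.7 CPM in spinal cord (log2 difference -2.24 ± 0.18 SE, adjusted p = 6.15e-10), and Arc, a gene that neuronal activity induces, at -1.94.

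Markers of connective tissue, mesothelial and endothelial cells were mostly on the diaphragm side. For comparison, 18.4% of all tested genes were higher and 56.9% lower, or 18.3% and 33.3% under all 4 scalings. Fibroblast and tendon genes were called higher in 16 of 18 cases and lower in none, under every scaling, with a share of 0.297% ± 0.0517 in diaphragm, against 0.0255% ± 0.00241 in spinal cord, and 0.593% ± 0.247 in Cre-negative diaphragm. Dpt, the matrix protein dermatopontin, had 178, 173 and 172 CPM in diaphragm, against 1.97, 3.32 and 2.7 CPM in spinal cord (log2 difference 5.60 ± 0.20 SE, adjusted p = 1.67e-15). Postn, periostin, had 168, 256 and 171 CPM in diaphragm, against 6.68, 6.06 and 6.88 CPM in spinal cord (log2 difference 4.70 ± 0.36 SE, adjusted p = 3.53e-10). Both were at or above the diaphragm level in Cre-negative muscle for most libraries, with 355, 148 and 195 CPM of Dpt and 1089.6, 339 and 471 CPM of Postn. Mesothelial genes, of the cells that line body cavities, were higher in 8 of 8 cases. Msln, mesothelin, had 31.5, 53 and 27.4 CPM in diaphragm, against 0.643, 1.24 and 0.64 CPM in spinal cord (log2 difference 4.34 ± 0.30 SE, adjusted p = 5.92e-11), and Upk3b had 11.9, 9.55 and 11.6 CPM in diaphragm and no read in spinal cord, which makes it at least 259.5-fold higher (adjusted p = 6.35e-12). Endothelial genes were higher in 10 of 12 cases and lower in 1, 10 and 0 of these under all scalings. Cdh5, the cadherin of endothelial junctions, had 9.02, 17.6 and 8.29 CPM in diaphragm, against 0.801, 1.28 and 1.19 CPM in spinal cord (log2 difference 2.53 ± 0.21 SE, adjusted p = 1.63e-09), and Pecam1, an endothelial adhesion protein, was higher at 2.51. Cartilage genes were higher in 7 of 13 cases, led by Col2a1, the collagen of cartilage, with 106, 227 and 96.5 CPM in diaphragm, against 22.3, 20.8 and 20.7 CPM in spinal cord (log2 difference 2.58 ± 0.53 SE, adjusted p = 2.11e-04), while Cre-negative diaphragm had 0.792, 0.101 and 0.0909 CPM. The other 6 cartilage genes were not called. The list's share was 0.0384% ± 0.0198 in diaphragm and 0.0127% ± 0.0012 in spinal cord. In Cre-negative diaphragm it was 0.00497% ± 0.00537, with every library below spinal cord.

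Liver transcripts distinguished diaphragm replicate 2. All 18 hepatocyte genes were called higher in diaphragm, under every scaling, and 17 without the intermediate libraries. Of all tested genes 18.4% were higher, and 18.3% under all 4 scalings. All 18 hepatocyte genes were highest in replicate 2. Their summed share was 0.329%, 2.07% and 0.248% in the 3 diaphragm libraries, against 0.0197% to 0.0293% in spinal cord and 0.0247% to 0.0367% in Cre-negative diaphragm. Alb, serum albumin, had 326, 2229.5 and 225 CPM in diaphragm, against 11.1, 3.54 and 7.48 CPM in spinal cord (log2 difference 6.15 ± 0.76 SE, adjusted p = 4.35e-07). Afp, the fetal serum protein alpha-fetoprotein, had 130.1, 1501 and 74.6 CPM in diaphragm, against 3.49, 1.44 and 2.62 CPM in spinal cord (log2 difference 6.17 ± 0.71 SE, adjusted p = 1.36e-07). Fabp1 had 685, 4230.5 and 541 CPM in diaphragm, against 16, 4.31 and 8.94 CPM in spinal cord (log2 difference 6.91 ± 0.87 SE, adjusted p = 4.96e-07), and Apoc4 had a log2 difference of 7.07. Without replicate 2, 17 of the 18 were still called, all but Apoc1, an apolipoprotein with 99.3, 1019 and 65.1 CPM in diaphragm, against 57.7, 51.3 and 52.8 CPM in spinal cord (log2 difference 1.79 ± 0.63 SE, adjusted p = 0.0156), whose log2 difference was 0.57 (adjusted p = 0.139) without that replicate. The call of Apoc1 was also lost without the intermediate libraries (log2 difference 2.23, adjusted p = 0.0597). The part of liver RNA in other results was not tested. Erythroid genes were higher in 8 of 12 cases and lower in none, beside 18.4% and 56.9% of all tested genes. Their share was 0.928% ± 0.317 in diaphragm, against 0.354% ± 0.00983 in spinal cord, and 0.592% ± 0.00611 in Cre-negative diaphragm. Hbb-bt, an adult beta-globin that shares most of its sequence with its neighbour, had 658, 1454 and 679 CPM in diaphragm, against 155, 159 and 146 CPM in spinal cord (log2 difference 2.49 ± 0.25 SE, adjusted p = 2.42e-08). Of 8 tested pancreatic acinar genes 2 were lower and none higher.

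Glial genes of the cord were on the opposite side. Of 15 oligodendrocyte lineage genes 13 were called lower and 1 higher, under every scaling, and 13 and 1 also without the intermediate libraries, with a share of 0.00341% ± 0.00309 in diaphragm, against 0.109% ± 0.00402 in spinal cord. Olig1, a transcription factor of oligodendrocyte and motor neuron progenitors, had no diaphragm read, against 84.5, 82.6 and 85.6 CPM in spinal cord, and was at least 2643-fold lower (adjusted p = 7.17e-14). Mbp, myelin basic protein, which Schwann cells also make, had 6.07, 39.5 and 4.35 CPM in diaphragm, against 651, 603 and 625 CPM in spinal cord (log2 difference -5.77 ± 0.50 SE, adjusted p = 2.19e-09). All 12 astrocyte genes were lower, 10 under every scaling. Gfap, the intermediate filament of astrocytes, had 0.0507, 0.0233 and 0.0404 CPM in diaphragm, against 104, 104 and 99 CPM in spinal cord (log2 difference -6.64 ± 0.26 SE, adjusted p = 4.76e-15), and Fabp7, the fatty acid binding protein of radial glia, had 1.84, 0 and 2.06 CPM in diaphragm, against 616, 656 and 671 CPM in spinal cord (log2 difference -8.30 ± 0.42 SE, adjusted p = 4.92e-13). Schwann cell genes, of the glia along motor axons, were near all tested genes, with a median log2 difference of -0.47 against -0.80 and 5 of 9 tested members above that. They were lower in 6 of 9 cases and higher in 1, beside 56.9% and 18.4% of all genes, but under all scalings in 1 case each, and without the intermediate libraries also in 1 each. Ngfr, a neurotrophin receptor of immature Schwann cells and of young motor neurons, had 1.16, 2.71 and 1.04 CPM in diaphragm, against 72.6, 71.4 and 71.2 CPM in spinal cord (log2 difference -4.84 ± 0.27 SE, adjusted p = 2.45e-12). Pmp22, a protein of peripheral myelin that fibroblasts also make, had 108, 183 and 99.5 CPM in diaphragm, against 41.3, 60.4 and 50.3 CPM in spinal cord (log2 difference 1.31 ± 0.23 SE, adjusted p = 2.93e-05). Microglia and macrophage genes were higher in 5 of 15 cases and lower in 3, 5 and 0 under all scalings. Lyz2, a lysozyme of myeloid cells, had 23.1, 32.7 and 21.7 CPM in diaphragm, against 4.99, 6.58 and 6.13 CPM in spinal cord (log2 difference 1.94 ± 0.28 SE, adjusted p = 3.04e-06). Adipocyte genes were higher in 2 of 9 tested cases and lower in 2, beside 18.4% and 56.9% of all genes. None of them was lower under all scalings, and 1 was lower without the intermediate libraries. Fabp4, a lipid carrier of fat and capillary cells, was higher at 4.19 and Plin4, a lipid droplet coat protein, at 3.71.

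**Figure D4:**
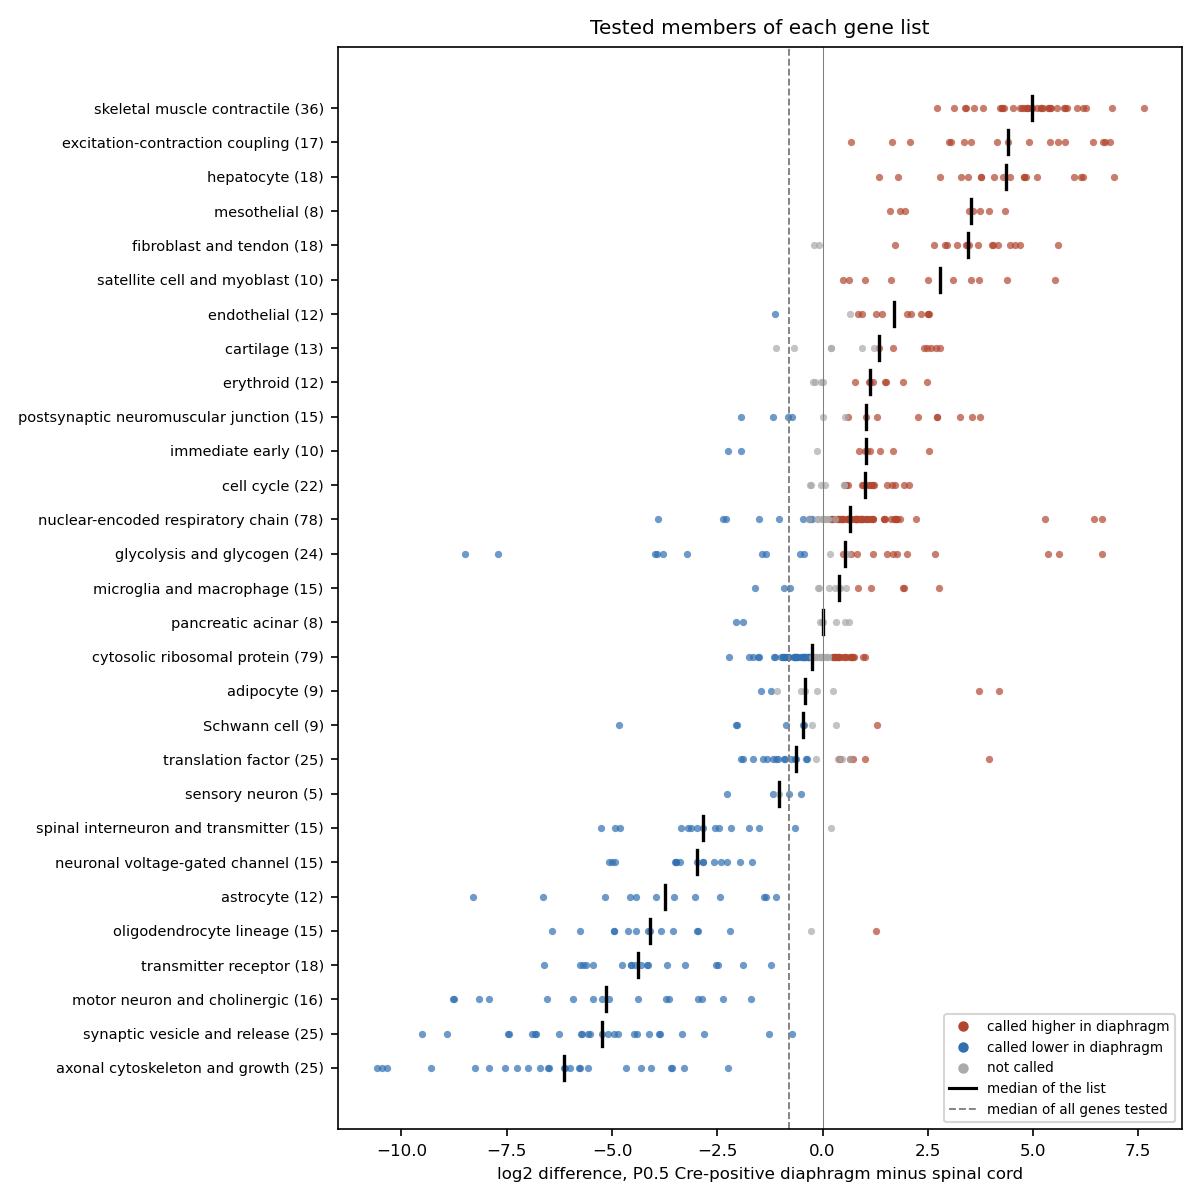
Log2 difference of each tested member, P0.5 diaphragm minus spinal cord, on the log2(CPM + 1) scale (horizontal axis) by gene list (vertical axis), with the median of each list and a line at the all-gene median of -0.80. Muscle, connective tissue, mesothelial and hepatocyte lists lie to the right of that line, and neuronal, oligodendrocyte and astrocyte lists to its left.

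The tissue difference at P0.5 was then set against that at E15.5 and at P10, within the same fit. The comparisons share the P0.5 libraries, so their values are given side by side. Relative to E15.5 the difference changed at 5734 genes (38.7%), positive at 1756 (11.8%) and negative at 3978 (26.8%). A positive value means that diaphragm stood higher relative to spinal cord at P0.5 than at the other age. Relative to P10 it changed at 6889 genes (46.5%), positive at 2686 (18.1%) and negative at 4203 (28.3%). Without the intermediate libraries 1463 and 2864 genes were called, a larger loss than for the tissue comparison at P0.5. That fit has fewer libraries in every group, and whether leaving out other libraries in every group would lose as many calls was not tested. The medians over all tested genes were -0.27 and -0.17.

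Respiratory chain genes moved towards diaphragm after E15.5. Of 78, 66 were positive and 5 negative against E15.5 (54 and 4 without the intermediate libraries), beside 11.8% positive and 26.8% negative among all tested genes, and their share in diaphragm was 11.03% ± 0.2 at E15.5, 23.7% ± 2.84 at P0.5 and 29.95% ± 0.488 at P10. In spinal cord the share was 13.4% ± 0.033, 14.3% ± 0.141 and 17.9% ± 0.342 at those ages. Cox7a1 had 5375 ± 979 CPM in P0.5 diaphragm and 52.6 ± 9.85 CPM in P0.5 spinal cord, beside 1110.2 ± 21.6 CPM in E15.5 diaphragm and 108 ± 37.5 CPM in E15.5 spinal cord (3.23 ± 0.27 SE, adjusted p = 2.64e-08). Ribosomal protein genes went the other way, with 66 of 79 negative and 0 positive against E15.5 (37 without the intermediate libraries). Their diaphragm share was 14.2% ± 0.791 at E15.5, 7.43% ± 1.09 at P0.5 and 9.74% ± 0.144 at P10, beside 8.83% ± 0.955, 8.72% ± 0.437 and 8.37% ± 0.14 in spinal cord. Rpl22 had 15.8 ± 2.74 CPM in P0.5 diaphragm and 51.1 ± 2.7 CPM in P0.5 spinal cord, beside 46.5 ± 5.07 CPM in E15.5 diaphragm and 58.5 ± 6.05 CPM in E15.5 spinal cord (-1.32 ± 0.18 SE, adjusted p = 1.17e-05). All 22 cell cycle genes were negative against E15.5, 7 of them without the intermediate libraries. Contractile genes were positive in 11 of 36 cases and negative in 2 (4 and 0 without the intermediate libraries), and took 9.36% ± 1.02 of E15.5 diaphragm and 13.5% ± 0.567 of P10 diaphragm. Erythroid genes were negative in 12 of 12 cases (9 without the intermediate libraries), with a diaphragm share of 16.4% ± 4.61 at E15.5. All 13 called hepatocyte genes were negative, and none was called without the intermediate libraries.

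**Figure D5:**
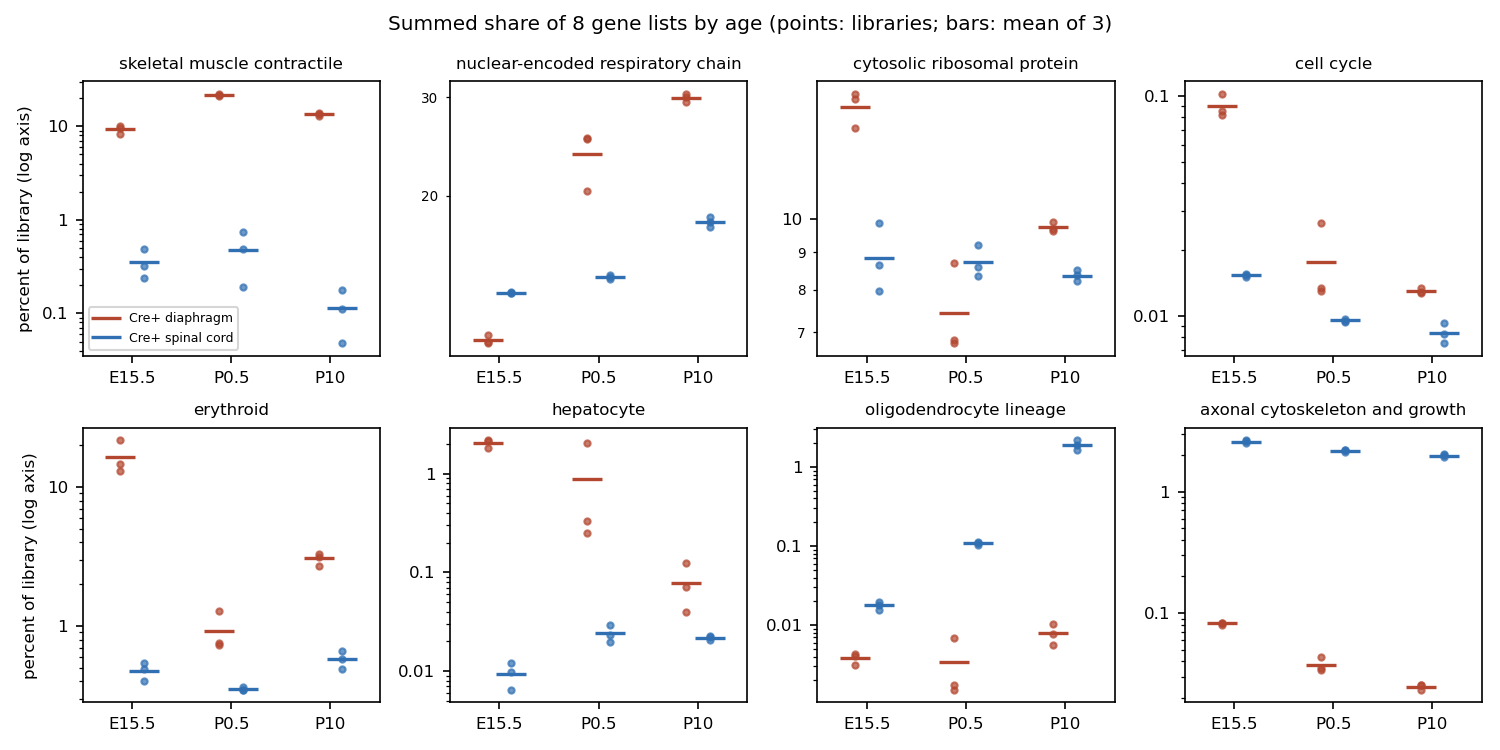
Percent of a library's reads (vertical axis, log scale) taken by 8 gene lists in Cre-positive diaphragm and spinal cord at E15.5, P0.5 and P10 (horizontal axis), with 3 libraries per group as points and their mean as a bar. The respiratory chain share in diaphragm is 11.03%, 23.7% and 29.95% at the 3 ages, and the oligodendrocyte share in spinal cord is 0.0178%, 0.109% and 1.89%.

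Among the 6 largest positive changes against E15.5 were genes of lipid handling and of muscle. Plin5, a coat protein that ties lipid droplets to mitochondria, had 165 ± 79.1 CPM in P0.5 diaphragm and 1.86 ± 0.192 CPM in P0.5 spinal cord, beside 9.34 ± 0.165 CPM in E15.5 diaphragm and 3.96 ± 1.11 CPM in E15.5 spinal cord (4.63 ± 0.37 SE, adjusted p = 1.66e-08). Mb, myoglobin, had 1236 ± 319 CPM in P0.5 diaphragm and 9.82 ± 2.7 CPM in P0.5 spinal cord, beside 50.3 ± 18.6 CPM in E15.5 diaphragm and 7.67 ± 1.13 CPM in E15.5 spinal cord (4.32 ± 0.36 SE, adjusted p = 2.54e-08). Thrsp, a nuclear protein linked to fatty acid synthesis, had 287 ± 33.4 CPM in P0.5 diaphragm and 4.64 ± 1.4 CPM in P0.5 spinal cord, beside 64.8 ± 15 CPM in E15.5 diaphragm and 24.4 ± 5.54 CPM in E15.5 spinal cord (4.33 ± 0.28 SE, adjusted p = 7.08e-10). In all of these the P0.5 diaphragm level was the highest of the 4 groups. Nmrk2, a kinase of NAD synthesis in muscle, had 136 ± 75.6 CPM in P0.5 diaphragm and 1.19 ± 0.132 CPM in P0.5 spinal cord, beside 1.26 ± 1.01 CPM in E15.5 diaphragm and 0.416 ± 0.152 CPM in E15.5 spinal cord (5.16 ± 0.55 SE, adjusted p = 5.72e-07). Among the 6 largest negative changes, Akr1b7, an aldo-keto reductase of the adrenal cortex, had 1.32 ± 0.231 CPM in P0.5 diaphragm and 1.15 ± 0.135 CPM in P0.5 spinal cord, beside 91.7 ± 48.3 CPM in E15.5 diaphragm and 0.307 ± 0.192 CPM in E15.5 spinal cord (-5.93 ± 0.33 SE, adjusted p = 1.21e-10). Cyp21a1, the adrenal steroid 21-hydroxylase, had 0.409 ± 0.346 CPM in P0.5 diaphragm and 0.128 ± 0.0632 CPM in P0.5 spinal cord, beside 115 ± 69.6 CPM in E15.5 diaphragm and 0.0312 ± 0.0313 CPM in E15.5 spinal cord (-6.37 ± 0.36 SE, adjusted p = 1.23e-10), and did not pass the filter on low values without the intermediate libraries. Other negative changes lay on the side of the cord. Hoxc10, a homeobox gene of lumbar segments, had 0 CPM in P0.5 diaphragm and 39 ± 0.956 CPM in P0.5 spinal cord, beside 1.35 ± 1.15 CPM in E15.5 diaphragm and 0.828 ± 0.0991 CPM in E15.5 spinal cord (-5.52 ± 0.36 SE, adjusted p = 8.49e-10). Mt2, a metallothionein, had 225 ± 118 CPM in P0.5 diaphragm and 577 ± 99.8 CPM in P0.5 spinal cord, beside 382 ± 69.5 CPM in E15.5 diaphragm and 20.6 ± 3.28 CPM in E15.5 spinal cord (-5.60 ± 0.45 SE, adjusted p = 1.72e-08).

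Against P10, most oligodendrocyte genes had a positive change. Oligodendrocyte genes were positive in 10 of 15 cases and negative in 1 (7 and 0 without the intermediate libraries), beside 18.1% and 28.3% of all tested genes, and took 0.0178% ± 0.00213 of spinal cord reads at E15.5, 0.109% ± 0.00402 at P0.5 and 1.89% ± 0.271 at P10. Mog, a surface protein of mature oligodendrocytes, had 0 CPM in P0.5 diaphragm and 3.59 ± 0.263 CPM in P0.5 spinal cord, beside 0.0203 ± 0.0352 CPM in P10 diaphragm and 158 ± 3.99 CPM in P10 spinal cord (5.09 ± 0.20 SE, adjusted p = 4.68e-13). On the recovered reads neither edgeR (1.27, adjusted p = 0.864) nor DESeq2 (2.26, adjusted p = 0.211) called the change of Mog. Mal, a membrane protein of myelin, had 1.45 ± 1.41 CPM in P0.5 diaphragm and 3.5 ± 0.716 CPM in P0.5 spinal cord, beside 0.79 ± 0.656 CPM in P10 diaphragm and 171 ± 2.77 CPM in P10 spinal cord (5.65 ± 0.46 SE, adjusted p = 8.86e-09). In both the P10 spinal cord stood far above the other 3 groups. Gsn, the actin-severing protein gelsolin, was also highest in P10 spinal cord and lowest in P0.5 spinal cord, and had the largest positive change of the comparison, with 44.1 ± 5.85 CPM in P0.5 diaphragm and 9.78 ± 0.825 CPM in P0.5 spinal cord, beside 29.7 ± 1.24 CPM in P10 diaphragm and 1892 ± 52 CPM in P10 spinal cord (8.01 ± 0.36 SE, adjusted p = 2.89e-12). Negative changes had several forms. Bcar1, an adaptor of focal adhesions, had 143 ± 128 CPM in P0.5 diaphragm and 147 ± 78.4 CPM in P0.5 spinal cord, beside 4085 ± 377 CPM in P10 diaphragm and 46.5 ± 0.589 CPM in P10 spinal cord (-6.67 ± 0.63 SE, adjusted p = 7.13e-08). Retnla, a secreted protein of alternatively activated macrophages and fat tissue, had 0.253 ± 0.232 CPM in P0.5 diaphragm and 0 CPM in P0.5 spinal cord, beside 94.7 ± 18.5 CPM in P10 diaphragm and 0.768 ± 0.743 CPM in P10 spinal cord (-5.52 ± 0.32 SE, adjusted p = 1.07e-10). In Bcar1 and Retnla the P10 diaphragm was the highest group. Both tissues had less Retnla at P0.5, and edgeR on the recovered reads, which works with ratios, called no change for it (0.35, adjusted p = 0.834). Reg3b, a lectin that injured neurons and gut express, had 0 CPM in P0.5 diaphragm and 43.8 ± 2.69 CPM in P0.5 spinal cord, beside 0.0237 ± 0.0411 CPM in P10 diaphragm and 0.0251 ± 0.0435 CPM in P10 spinal cord (-5.48 ± 0.15 SE, adjusted p = 2.45e-15), and Pigt, a subunit of the enzyme that attaches GPI anchors, had 2.89 ± 1.18 CPM in P0.5 diaphragm and 64.4 ± 10.7 CPM in P0.5 spinal cord, beside 29.6 ± 0.754 CPM in P10 diaphragm and 7.45 ± 0.581 CPM in P10 spinal cord (-5.97 ± 0.27 SE, adjusted p = 2.89e-12). Both were highest in P0.5 spinal cord. Endothelial genes were negative in 9 of 12 cases and cartilage genes positive in 9 of 13 against P10 (4 and 5 without the intermediate libraries).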

How the data were processed

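The authors deposited 1 table of 18845 genes by 36 libraries in CPM, made with Bowtie2 2.2.5, RSEM 1.2.12 and mm10, per the submitters' processing notes, which do not give their order. Each column sums to 1000000, and dividing by the step of 1 read gave whole reads for 100% of values within 0.1. Tagged and carried-over RNA are not separated by any of these steps.

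The main test was limma 3.58.1 in R 4.3.3 on log2(CPM + 1), with trend and robust options, for genes that reached 1 CPM in 3 or more of the 24 Cre-positive libraries, which form 8 groups. The groups were both tissues at E15.5, P0.5, P10 and in adults. Contrasts were diaphragm minus spinal cord at P0.5, and that difference minus the same difference at E15.5 or P10. P-values were adjusted over all 14831 tested genes by the Benjamini-Hochberg method and called under 0.05. For a gene at 0 in every library of a group, the fold is a bound from 3 reads per library. Alternatives were edgeR 4.0.16 and DESeq2 1.42.0 on the recovered reads, 3 other scalings, another pseudocount, filter and fit, a minimum difference, a replicate block and left-out libraries. The 6 compared libraries held 69.9 to 98.9 M reads (M, 1000000), so the scatter of libraries limits precision more than counting. On data simulated for the P0.5 tissue comparison (13725 genes), limma called 87.2% of 109 genes changed by 1 on the log2 scale, 100% of 91 changed by 2, and 0.104% of 13525 unchanged genes. In that simulation all groups shared 1 mean profile apart from the changed genes, and all genes shared 1 dispersion. It held few changed genes and no outlying library, unlike the real data. Its rates therefore check the code and do not give the error rate of the real comparison.

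Members and gene lists were chosen with earlier results of these data known. Genes named are among the 10 largest differences per direction whose groups do not overlap and whose higher group averages 10 CPM or more, up to 4 called members per list and direction (the 2 most abundant where none was called), the gene pairs, 8 genes given whatever their result, and the 6 largest changes per direction and called list members between ages. For the neuromuscular junction list, Chrne, Dok7, Etv5, Lrp4 and Utrn were added after their values were seen, as were Apoc1, Nefh, Kif1a, Stx1a, Bsn, Sv2b and Unc13b. Some genes that this rule or the list of pairs would name are not reported here. Same-numbered P0.5 libraries of the 2 tissues deviated from their group means with correlations of 0.04, -0.02 and -0.06, and the numbers were not taken as pairs. Differently numbered libraries gave -0.09 to 0.08, so these values cannot tell whether same-numbered libraries share an animal. Promoter sequences are from RefSeq, GRCm38.p6.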

Additional observations from a re-analysis of the deposited data

Results flagged for a closer look

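The difference between tissues itself changed with age, by the test of that change in the limma fit, at 5734 genes against E15.5 and at 6889 genes against P10. Against E15.5 the log2 changes of genes named in the report were 5.16 for Nmrk2, 4.63 for Plin5, 4.33 for Thrsp, 4.32 for Mb and 3.23 for Cox7a1, and -6.37 for Cyp21a1, -5.93 for Akr1b7, -5.60 for Mt2, -5.52 for Hoxc10 and -1.32 for Rpl22. Against P10 they were 8.01 for Gsn, 5.65 for Mal and 5.09 for Mog, and -6.67 for Bcar1, -5.97 for Pigt, -5.52 for Retnla and -5.48 for Reg3b. With each of the 12 libraries of the compared groups left out in turn, 16 of these 17 genes were called each time, and Cyp21a1 in the 9 cases in which it was tested. Without the intermediate libraries 16 of the 17 were called, and Cyp21a1 was not tested. The changes of Mog and Retnla from P10 were not called by edgeR or DESeq2. Which tissue carried each change is given with the 4 group means in the report.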

How the results depend on the processing

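The 6 compared libraries limit every result, since diaphragm replicates 1 and 3 are close to each other and replicate 2 stands apart with more liver, cell cycle and glial reads. Leaving out a library gave 10570 to 11362 called genes for diaphragm against spinal cord, 4954 to 6806 for the change from E15.5 and 6158 to 7696 for the change from P10. With a minimum log2 difference of 1 (limma treat), 5913, 764 and 1511 genes were called, fewer by construction. Without the intermediate libraries the changes from E15.5 and P10 were called at 1463 and 2864 genes, and the cause was not tested. With the replicate block 11046, 5267 and 6494 genes were called. Whether replicate numbers pair the samples is not known, so this fit carries no further weight. Other counts stayed within 1.5 times, but the split of higher and lower calls moved with scaling. EdgeR called 5102 genes higher and 4930 lower in diaphragm and DESeq2 4643 and 5822. For the change from E15.5 the positive and negative calls were 2411 and 1968 with edgeR, 2291 and 2802 with DESeq2, 2629 and 2891 with TMM factors and 2883 and 2620 after quantile normalization, and for the change from P10 they were 3152 and 2520, 3432 and 2994, 3384 and 3478, and 3422 and 3527. Of 112 named genes called between the tissues, 107 were called without the intermediate libraries and 109 with every library left out in turn.

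Directions turned for 8 named genes, each with a small difference or a level near 0 in some group, and the cause was not tested. Camk2a was at 0.95 after quantile normalization, 0.77 with TMM factors, 0.61 with DESeq2's size factors, 0.93 with edgeR and 0.68 with DESeq2, and ranged over -0.43 to 0.0484 with a library left out. Cox7a2 was at 0.53 with TMM factors, 0.35 with DESeq2's size factors, 0.62 with edgeR and 0.36 with DESeq2. Dok7 was at 0.34 after quantile normalization, 0.10 with TMM factors and 0.19 with edgeR, and Etv5 at 0.273, 0.0869 and 0.205. Eef1a2 was at 0.17 after quantile normalization and 0.05 with edgeR. Utrn was at -0.0603 with a pseudocount of 0.1 CPM and ranged over -0.50 to 0.28 with a library left out, and Lrp4 over -0.21 to 0.99. For its change from P10, Retnla was at 0.35 with edgeR and 0.0256 with DESeq2.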
